A study of Drosophila melanogaster with 4 samples.

Results

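POF is an RNA-binding chromatin protein of the fruit fly Drosophila melanogaster, named for painting chromosome 4, and the regions described here are its enriched regions, called clusters, on 3L, the left arm of the third chromosome. Every region of the replicate-set list that lay on 3L and was named as enriched was taken, which gave 1671 of the 9053 clusters of that list. The replicate set is the list deposited for the series as a whole, and each of the 2 ChIP libraries also has a list of its own. The material was nuclei from sieved heads of adult flies of the wild-type strain Oregon-R, raised in population cages and collected as a mixed adult stage. DNA bound by POF was pulled down from fixed chromatin with the antibody labelled MO 459 and sequenced (ChIP-seq). The design has 2 ChIP libraries and 2 input libraries, and values of the inputs were not analysed here. The labels name no separate cultures for the replicates, so their spread may be technical. Read depth is unknown.

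POF coats most of the small chromosome 4, where it binds nascent transcripts and sits together with the heterochromatin protein HP1 and the methyltransferase Setdb1, and it is known for raising the output of the genes there. In some related Drosophila species it also marks the male X. The long autosomal arms such as 3L are not among the chromosomes it is named for. Arm 3L runs from its telomere, at position 1, to the pericentric heterochromatin next to the centromere, at the last position, and measured 24.5 Mb in FlyBase release 5, the genome of the files.

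On 3L POF lay in many short, separate clusters. ChIP replicate 1 had 1273 clusters covering 2.78 Mb and ChIP replicate 2 had 977 covering 2.29 Mb, a mean of 45.8 ± 8.53 clusters per Mb (SD, n = 2). They covered 11.3% of the arm in replicate 1 and 9.31% in replicate 2. The replicate set had 1671 clusters covering 3.58 Mb, or 14.6%. The middle 50% of the replicate-set clusters were between 1407 and 2437 bases wide, around a median of 1996 bases. The median was 2013 bases in replicate 1 and 2141 in replicate 2. Clusters of at least 5 kb were few: 43 in the replicate set (2.57%), 23 in replicate 1 and 17 in replicate 2.

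The authors gave each cluster a score without stating its scale, and the log base was read from the values themselves. Within a list, most differences between scores were base-2 logarithms of ratios of whole numbers of at most a few digits. With the commonest score of each list as the reference and a relative tolerance of 1e-10, 99.8% of the 3L scores of replicate 1 came out as such a ratio with a denominator of at most 1000. The share was 80.1% in replicate 2 and 55.6% in the replicate set. Read as natural or base-10 logarithms, 0.393% or fewer came out as such a ratio in any of the 3 lists. A score was therefore read as a log2 ratio within its list, to a reference that the sources used here do not describe, and 1 unit as a doubling. For the scores that did not come out as such a ratio, the same base was assumed. Fold values of replicate 2 and the replicate set rest on this reading.

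Most 3L scores lay in a narrow band, and a few stood far above it. In the replicate set the scores ran from 0.0209 to 3.31 with a median of 0.442, and the middle 50% lay between 0.353 and 0.703. The highest score was thus 7.28-fold above the median on the linear scale. In replicate 1 the median was 0.602 and the maximum 3.18, a distance of 5.97-fold. In replicate 2 they were 0.686 and 3.57, a distance of 7.36-fold. Wider clusters carried higher scores: Spearman's rho between width and score was 0.558 over the 1671 clusters of the replicate set, 0.681 in replicate 1 and 0.780 in replicate 2. These correlations run across clusters of 1 library or set, which are not independent, and Pearson's r was 0.424, 0.430 and 0.431.

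The strongest reproducible sites were wider than the median cluster of the arm and stood at nearly the same places in both ChIP lists. They were picked by score among clusters overlapped in both lists. Their height above the median follows from that choice, and so, in part, do their width and shared place. Among replicate-set clusters overlapped by at least 1 base in both lists, the highest score lay at 3L: 13033095 to 13035879, which scored 3.31 in the replicate set, 3.00 in replicate 1 and 3.52 in replicate 2. It ranked second of the arm in each ChIP list. The site at 20517280 to 20520889 scored 3.05, 3.18 and 3.57 in the same order and ranked first in both ChIP lists. The next, at 9705892 to 9708526, scored 3.04, 2.48 and 3.44. The weakest of these 3 sites still stood 2.60 log2 units above the median of the arm in the replicate set, 1.87 in replicate 1 and 2.76 in replicate 2.

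The other 7 of the top 10 lay at 22709403 to 22711960 (score 2.75), 15150651 to 15153266 (2.66), 16373372 to 16375936 (2.65), 11812062 to 11817048 (2.65), 6960993 to 6963809 (2.64), 14767966 to 14771340 (2.62) and 6598034 to 6600290 (2.61). These scores differed by little, and the order of the sites was another in each list. The 10 sites were 2.26 to 4.99 kb wide. Their scores lay between 2.27 and 3.18 in replicate 1 and between 2.79 and 3.57 in replicate 2, so that the 2 ranges overlap, and all 10 scored higher in replicate 2. Whether the 2 lists share a score reference is not stated. None ranked below place 14 of the arm in replicate 1 or place 11 in replicate 2. The centres of the best-overlapping clusters in the 2 ChIP lists were 65.5 bases apart in the median of the 10 sites, and 908.5 at most. The largest distance belonged to the site at 11812062, which replicate 1 lists as 2 clusters and replicate 2 as 1.

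**Figure D1:**
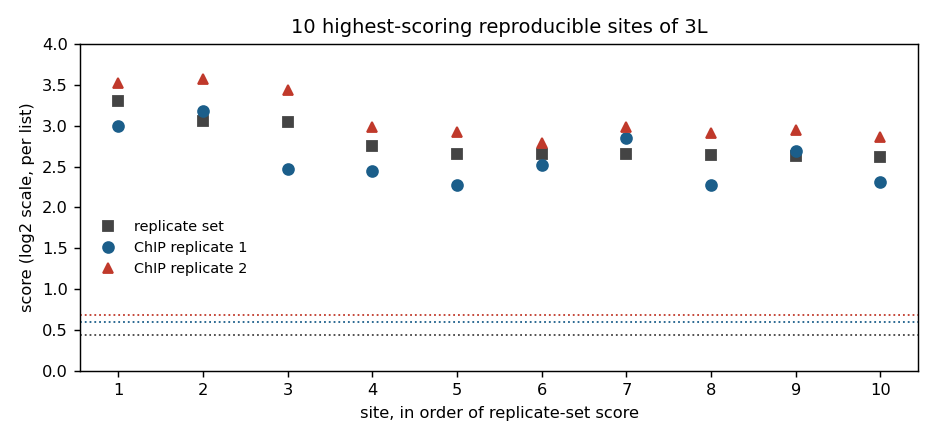
Scores (y axis, log2 scale within each list) of the 10 highest-scoring 3L sites found in both ChIP lists (x axis, in order of replicate-set score), with 1 symbol per list and the median 3L score of each list as a dotted line in its colour. The sites lie at 2.27 or above in every list, while the medians lie between 0.442 and 0.686, and the replicate 2 symbol is above the replicate 1 symbol at each site.

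Recurrence of the strongest sites went deeper than the first 10. Of the 20 highest-scoring 3L clusters of replicate 1, all 20 were overlapped in replicate 2, and 16 by a cluster that was itself among the first 20 there. For the first 100 the numbers were 100 and 80. All of the first 100 of replicate 2 were overlapped in replicate 1.

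Over all 3L clusters the lists shared fewer. Of the replicate 1 clusters 852 of 1273, or 66.9% (exact 95% interval 64.3% to 69.5%), were overlapped in replicate 2, against 69.9% over all major chromosomes. Of the replicate 2 clusters 843 of 977, or 86.3% (84.0% to 88.4%), were overlapped in replicate 1, against 84.5%. The background lies above the first interval and within the second. On 2L the shares were 67.9% and 86.5%, and on 3R they were 72.2% and 83.8%. These intervals cover counting error only, and neighbouring clusters are not independent. Clusters without a partner were narrower and weaker in either list. Their medians in replicate 1 were 1550 bases and 0.537, against 2151 bases and 0.693 for overlapped clusters. In replicate 2 they were 1765 bases and 0.492, against 2198 bases and 0.772.

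Where a 3L cluster of one list met exactly 1 cluster of the other and the reverse, the pair matched closely in position. There were 799 such pairs. Their centres lay 69.5 bases apart in the median, and in 75.8% of pairs at most 200 bases apart. The shared sequence made up 91.1% of the wider cluster in the median. The cluster of replicate 2 was the wider in 480 pairs (60.1%), and the median excess over all pairs was 51 bases. The scores of the pairs gave r = 0.882 (Pearson) and rho = 0.767 (Spearman) over the 799 pairs, which lie on 1 arm of the same 2 libraries. Of pairs that scored at least 1.5 in replicate 1, 55 of 63 scored higher in replicate 2. This was not particular to 3L: on 2L it held for 64 of 81 such pairs, and on 3R for 81 of 94. Weaker pairs of 3L were not counted, and some went the other way, such as 1 with 0.875 in replicate 1 and 0.266 in replicate 2. Whether the 2 lists share a score reference is not known.

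**Figure D2:**
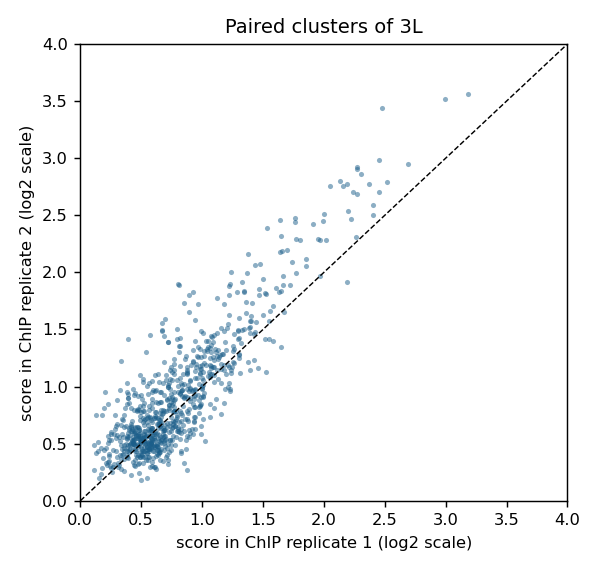
Each point is 1 of 799 pairs of 3L clusters that overlap one to one, with its score in ChIP replicate 1 on the x axis and in ChIP replicate 2 on the y axis (both log2 scale), and the dashed line marks equal scores. Points are densest at low scores in both lists, and 55 of the 63 pairs that score at least 1.5 in replicate 1 lie above the line.

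Of the 1671 replicate-set clusters on 3L, 828 were overlapped in both ChIP lists. That is 49.6% (exact 95% interval 47.1% to 52.0%), next to 50.3% over all major chromosomes, and the background lies within the interval. A further 297 (17.8%) were overlapped in replicate 1 only, where the major chromosomes together gave 16.5%. Another 125 (7.48%) were overlapped in replicate 2 only, against 8.77%, and 421 (25.2%) in neither, against 24.5%. The clusters in both lists made up 64.5% of the sequence covered by the replicate set on 3L, and those in neither 15.0%.

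The classes differed in width and score. Clusters in both lists measured 2383 bases in the median and scored 0.687. Those in neither had 1181 bases and 0.395, a 1.22-fold lower ratio on the linear scale. Clusters in replicate 1 only had a median score of 0.352 and those in replicate 2 only 0.342, below the clusters found in neither. Of the 421 clusters in neither, 268 (63.7%) were narrower than 1301 bases, the narrowest cluster of either ChIP list, and none of those in both lists was. Unlike width limits and recurrence cannot be told apart for these narrow clusters. The lists also differ in the other direction: 128 replicate 1 clusters on 3L (10.1%) were overlapped by no replicate-set cluster, where the major chromosomes together gave 7.86%. In replicate 2 only 9 (0.921%) were missed, against 1.06%.

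Support was unlike in classes of score, with a step between the middle class and the next. Score and support are not independent measures, since the replicate set and the ChIP lists come from the same 2 ChIP libraries. The step is therefore a description of how the lists relate, and width, which correlates with score over the whole arm, shares this limit. When the 3L clusters were split into 5 classes of nearly equal size by replicate-set score, 17.9% of the lowest class, 18.6% of the next and 30.8% of the middle class were in both lists. The share was 83.8% in the class from 0.495 to 0.819 and 96.7% above it. Median width in these classes, from the lowest score to the highest, was 1701, 1601, 1597, 2239 and 2619 bases. Clusters in neither were commonest in the middle class, at 41.9%, and made up 28.7% of the lowest. Width showed a similar step. Both lists held 0 of the 348 clusters under 1301 bases and 17.1% of the 496 from there to 2 kb, but 88.4% of the 593 from 2 to 3 kb and all 43 of at least 5 kb. On 2L and 3R the same step stood between the same classes, with 92.2% and 96.2% in both lists for the second-highest score class and 32.8% and 35.4% for the middle one.

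**Figure D3:**
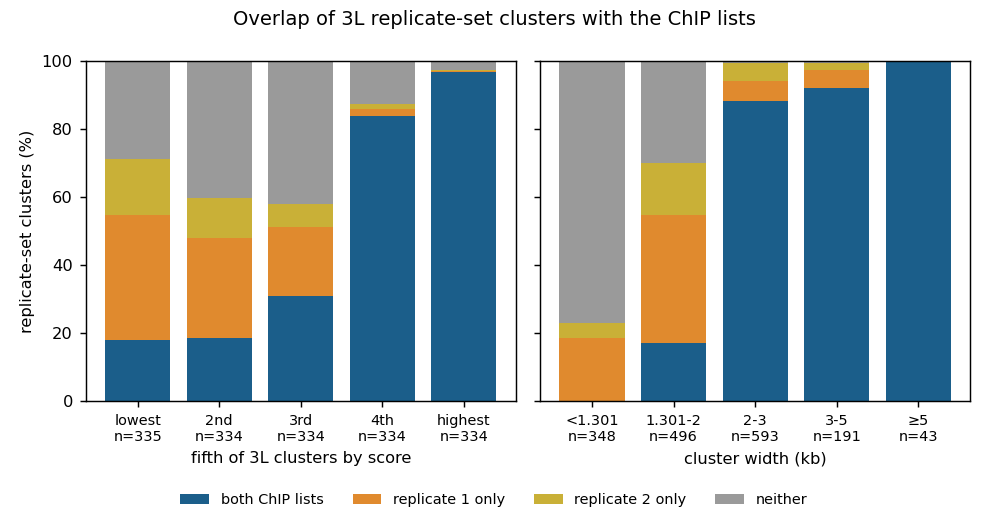
Share of the 3L replicate-set clusters (y axis, %) overlapped by at least 1 base in both ChIP lists, in 1 of them or in neither, by class of score (left) and by width in kb (right), with the number of clusters under each bar. The share in both lists is 30.8% in the middle score class and 83.8% in the next, and 17.1% from 1301 bases to 2 kb of width and 88.4% from 2 to 3 kb.

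A few clusters had a high score and no support. Among the 100 highest-scoring clusters of 3L, 96 were in both lists and 4 in neither. The first of the 4, at 19855718 to 19856718, scored 3.22 and was second of the whole arm, yet the nearest cluster was 6.47 kb away in replicate 1 and 5.79 kb in replicate 2. It was 1001 bases wide, the smallest width in the replicate set. Its score recurred in every digit written in 8 clusters of the replicate set, and all 8 were 1001 bases wide. The next unsupported clusters lay at 24175343 to 24176343 (score 2.55), 24448390 to 24449397 (2.22), 23054722 to 23055722 (1.99) and 22092842 to 22093842 (1.27), each at most 1008 bases wide. The scores of these 4 recurred in 3, 6, 4 and 2 clusters in that order. Over the arm, recurring scores made up 52.7% of the clusters in neither list and 7.61% of those in both, against 24.6% of all 1671. The shares were 31.3% in replicate 1 only and 26.4% in replicate 2 only. Width also differs between these classes and was not held equal.

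Of clusters with support in exactly 1 ChIP list, the highest score was 1.25, at 23663351 to 23665351, which replicate 2 also lists, with a score of 1.43. The next stood at 23859765 to 23861024 (1.04), 23688383 to 23690393 (0.680) and 23131247 to 23132485 (0.676), all from replicate 1 only. The last of the 5, at 1628543 to 1629729 (0.614), was in replicate 2 only. The first 4 of these 5 lay in the last 1.54 Mb of the arm, as did 3 of the 5 unsupported clusters above.

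That centromere end was the part of 3L where the lists differed most. From position 23000001 to the end of the arm, a limit set after the values were seen, replicate 1 had 65 clusters and replicate 2 had 21. They covered 8.73% and 3.31% of this sequence. On the rest of the arm the numbers were 1208 and 956, and the covered shares 11.5% and 9.72%. Of the 105 replicate-set clusters in the end, 11 were in both ChIP lists (10.5%, exact 95% interval 5.35% to 18.0%), 34 in replicate 1 only and 54 in neither, whereas 52.2% of the 1566 on the rest of the arm were in both. The median width was 1407 bases in the end and 2018 on the rest, and the median scores were 0.449 and 0.440.

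The 11 recurrent clusters of the end were mostly broad and strong, at a median of 4199 bases and of 1.46 in score. Among them were clusters at 24019748 to 24027082, which scored 1.61 in the replicate set, 2.41 in replicate 1 and 2.51 in replicate 2, and at 23117233 to 23120226, with 1.92, 1.64 and 2.18. Others of the 11 were weak. The clusters at 23280301 to 23283545 (0.383) and 23114768 to 23116935 (0.431, 2168 bases wide) scored below the replicate-set median of the arm, 0.442. The one at 24027251 to 24031449 scored 0.483. Stretches of the same length at the centromere ends of 2 like arms were not alike. They were matched to the 3L end by length only, so the kind of sequence may differ between them. On 2L, 28.8% of 118 clusters in that stretch were in both lists (20.8% to 37.9%), against 52.6% on its rest. On 3R, where the centromere end is the start of the arm, the shares were 52.6% of 135 (43.8% to 61.2%) and 52.8%. The difference between the arms was not tested, since 2 libraries allow no two-sided exact permutation p below 0.5. Background knowledge places repeat-rich sequence at such ends, but reads that map to several places were not tested.

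**Figure D4:**
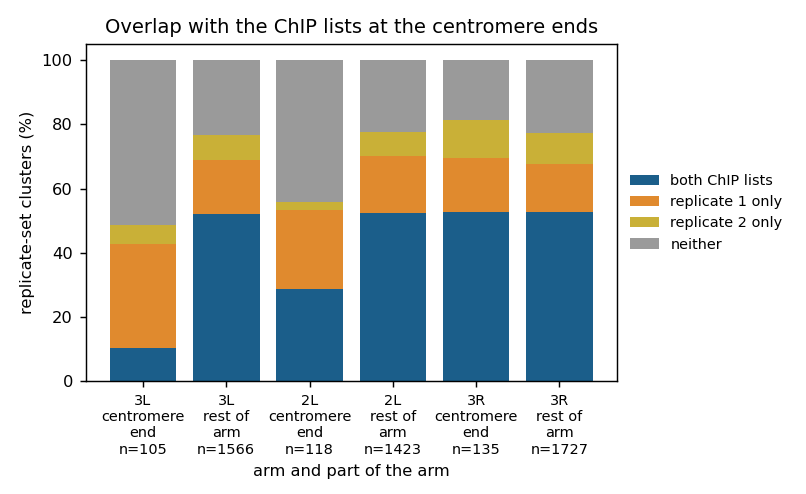
Share of replicate-set clusters (y axis, %) overlapped in both ChIP lists, in 1 or in neither, with the number of clusters under each bar. Bars show the 1.54 Mb next to the centromere, last on 3L and 2L but first on 3R, and the rest of each arm. The share in both lists is 10.5% at the centromere end of 3L, 28.8% at that of 2L and 52.6% at that of 3R, and between 52.2% and 52.8% on the rest of each arm.

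Cover differed 3.26-fold in replicate 1 and 4.91-fold in replicate 2 between the most and the least covered megabase, and windows that were high in one ChIP list were mostly high in the other. In the 24 complete windows of 1 Mb, cover ranged from 5.52% to 18.0% in replicate 1, from 2.94% to 14.4% in replicate 2 and from 7.34% to 20.9% in the replicate set. Window cover in replicate 1 and replicate 2 correlated with r = 0.885 (Pearson) and rho = 0.912 (Spearman) over the 24 windows, which share libraries and list depth. Without the last complete window r was 0.918. The most covered window in every list was the tenth, from 9000001 to 10000000. In the replicate set it was followed by the window from 16000001 (20.4%) and the first window of the arm (20.2%).

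The least covered windows of the replicate set were those from 22000001 (7.34%), 13000001 (9.44%) and 6000001 (9.82%). Their cover was 5.52%, 7.37% and 7.70% in replicate 1 and 4.23%, 6.66% and 6.58% in replicate 2, so each lay below the median window of its list. The window from 23000001 was the lowest of replicate 2, at 2.94%, but stood at 8.95% in replicate 1. The window from 10000001 also differed, with 8.78% in replicate 1 and 4.88% in replicate 2, and 28.1% of its 64 replicate-set clusters were in both lists. In the other 22 complete windows replicate 1 cover was between 0.944 and 1.46 times that of replicate 2.

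**Figure D5:**
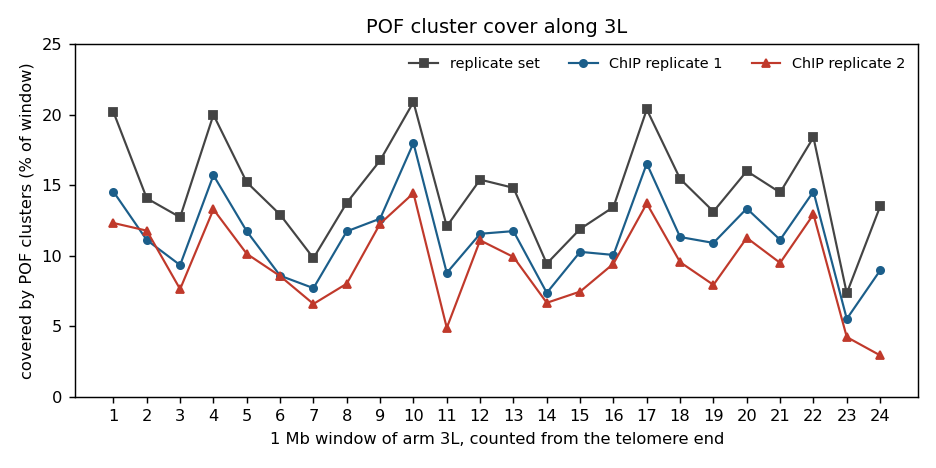
Share of each complete 1 Mb window of 3L covered by POF clusters (y axis, %), with windows counted from the telomere end (x axis) and 1 line per list. The lines peak together at the tenth window, at 18.0% in replicate 1 and 14.4% in replicate 2, next to 20.9% in the replicate set, and separate at the last window, where replicate 1 stands at 8.95% and replicate 2 at 2.94%.

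The tenth window held the longest run of clusters less than 5 kb apart in both ChIP lists, with 10 clusters each, from 9412899 to 9463608 in replicate 1 and from 9412813 to 9462594 in replicate 2. This stretch of 50.8 kb was picked after its values were seen. Clusters covered 62.4% of it in replicate 1 and 56.4% in replicate 2, next to 68.4% in the replicate set. In the replicate set this stretch was also a run, of 9 clusters, and no run of that list had more. Another run with as many lay at 122302 to 161704, with 9 clusters in 39.4 kb, of which they covered 50.8%. The highest scores of the stretch in window 10 were 1.66, 1.89 and 1.78 in that order, well under those of the strongest sites. The same window also holds the site at 9705892 and 2 of the 5 widest recurrent clusters.

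The 5 widest recurrent clusters of 3L scored above the median of the arm, but none was among the 10 strongest, and their score ranks on the arm ran from 100 to 430. The widest, at 19895422 to 19904373, measured 8.95 kb and scored 0.690 in the replicate set. Replicate 1 lists it as 1 cluster of 8804 bases with a score of 0.795, while replicate 2 has 2 narrower clusters there. The cluster at 16037895 to 16046539 was whole in all 3 lists, at 8645, 8599 and 8363 bases, with scores of 1.14, 1.18 and 1.14. The other 3 lay at 9412361 to 9421010 (0.801), 24525670 to 24534309 (1.40) and 9683940 to 9692428 (0.857), and each of them was split in at least 1 ChIP list. Over the 1671 replicate-set clusters of 3L such joining was rare: 28 met several replicate 1 clusters, and 19 met several of replicate 2.

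Between clusters lay a median of 8249 bases in replicate 1 and 8817 in replicate 2, next to 6211 in the replicate set. Neighbours less than 5 kb apart made up 38.1%, 35.2% and 44.9% of all neighbouring pairs in that order. Long stretches held no cluster in any list. Those of at least 50 kb numbered 62 and summed to 4.54 Mb, or 18.5% of the arm. The 5 longest measured 131 to 143 kb. They lay at 22566696 to 22709388, at 15289423 to 15428098, at 14268548 to 14402585, at 13507508 to 13640205 and at 6260314 to 6391705. The first and longest ends where the replicate 2 cluster of the site at 22709403, one of the 10 strongest, begins.

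Set beside 2L and 3R, the other autosomal arms most like it, 3L was covered to 0.949 ± 0.0485 of their joint share (SD, n = 2). Replicate 1 gave a ratio of 0.983, replicate 2 one of 0.915 and the replicate set one of 0.974. Against 3R alone it was 1.01 in replicate 1 and 0.900 in replicate 2, so its direction differed between the lists. Median gaps were shorter on 2L (6929 bases in replicate 1 and 7981 in replicate 2) and 3R (7571 and 7651) than on 3L in both lists. The widest cluster of 3L measured 8.80 kb in replicate 1 and 8.36 kb in replicate 2, against 11.7 and 11.5 kb on 2L and 11.8 and 11.6 kb on 3R. Clusters of at least 5 kb made up 1.81% and 1.74% of those on 3L in replicates 1 and 2, against 2.24% and 3.70% on 2L and 1.72% and 1.67% on 3R. None of these differences was tested, because the arms of 1 library are not replicates.

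Among the highest scores of all large arms, 3L clusters were close to their share at the top and fewer further down. They made up 20 of the first 100 in replicate 1 and 20 in replicate 2, where their share of all clusters would give 20.7 and 19.4. Of the first 1000 they made up 168 and 176, where it would give 207 and 194. The large arms include X, where the median score was 0.736 in replicate 1 and 0.824 in replicate 2, against 0.602 and 0.686 on 3L. In the same order it was 0.626 and 0.735 on 2L, 0.624 and 0.700 on 2R, and 0.604 and 0.756 on 3R. Whether other arms also fell short of their share was not counted, and the counts for 3L were not tested.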

How the data were processed

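ChIP-seq for POF was carried out on adult head nuclei, with 2 ChIP and 2 input libraries, per the labels. Reads were aligned with Bowtie 0.12.7, per the submitters' processing notes, to release 5 of the FlyBase genome, per the file headers. The caller and read filters were not given in the sources used here, nor any threshold. Per ChIP library the authors deposited 1 list of enriched regions, and for the series 1 replicate set, each region with a score, and how the replicates were combined is not stated. The score is the authors' value per region and was used to describe, rank and filter regions within a list, apart from the paired scores of the ChIP lists. Depth per library is unknown, and cluster number and width may depend on it.

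The 3L regions named as enriched were taken, and regions named as depleted were kept apart. Overlap meant at least 1 shared base. Coverage is the summed length of a list's clusters over the arm's length in the file headers. Major chromosomes are 2L, 2R, 3L, 3R, X and 4. Intervals of shares are exact (Clopper-Pearson, 95%). No test was run, since the lists hold 1 group of 2 libraries. The members, rules and alternatives were chosen with earlier results of these data known. Named regions were the 10 highest scores and 5 widest among clusters in both ChIP lists, the 5 highest scores in neither and in exactly 1, the 5 longest stretches uncovered in all lists, and the 3 most and least covered windows of 1 Mb. The limit at 23 Mb, the 50.8 kb stretch, the classes of score and width, and the test of the log base were added after the data were seen. The gene table at hand follows another release, so no gene or sequence is given. Interval code was checked on simulated data. Python 3.11.15, numpy 2.4.6, pandas 2.3.3, scipy 1.17.1 and matplotlib 3.10.9 were used.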

Additional observations from a re-analysis of the deposited data

Results flagged for a closer look

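The report uses enriched regions, and the replicate set also lists 4 regions of 3L as depleted of POF, of 19 in all. Neither ChIP list has a depleted region on 3L. No control list was analysed here beside them. The lowest score, -0.0962, belongs to 13434725 to 13436603, where replicate 1 lists an enriched cluster with a score of 0.116. At 9719026 to 9720932 (-0.0751) replicate 2 lists an enriched cluster with a score of 0.292. At 12734261 to 12735833 (-0.0721) and 1664345 to 1665868 (-0.0590) neither ChIP list has a cluster, and the nearest replicate-set clusters lie 1.39 kb and 1.81 kb away.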

How the results depend on the processing

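No paired analysis was possible because the inputs have no values here and the results come from no test. The lists alone moved most values. With 1 ChIP list in place of the replicate set, 3L had 977 to 1273 clusters, a covered share of 9.31% to 11.3%, a median width of 2013 to 2141 bases, a median score of 0.602 to 0.686, a median gap of 8249 to 8817 bases, a highest-to-lowest window ratio of 3.26 to 4.91 (2.85 in the replicate set) and a cover ratio to 2L and 3R of 0.915 to 0.983. Support has no value for a single list. Only clusters of 1301 bases or more gave a covered share of 13.0%, a median width of 2132 bases, a median gap of 7097 bases, 62.6% support in both lists and a median width difference between clusters in both and in neither of 868 bases (1202 for all). Only scores at or above the list median gave 752 clusters, a covered share of 8.25% and a median width of 2367 bases. Sequence covered in both ChIP lists was 7.63% of the arm. Merging clusters under 1 kb apart gave a median gap of 8069 bases and 52.8% support in both lists. Leaving out the sequence from 23 Mb, an alternative chosen after seeing the data, gave 52.2% support. Requiring 50% of both clusters to be shared gave 47.1% support, 63.6% of replicate 1 clusters in replicate 2 and 82.9% the other way. Windows of 500 kb gave a window ratio of 4.81. The cover ratio of 3L to the other arms stayed below 1 under all 7 alternatives to the main value, from 0.915 to 0.983. Those that added X, or X and 2R, used the replicate set alone. Against 2L, 3R and X the ratio was 1.0007 in replicate 1 and 0.921 in replicate 2. Against 3R alone it was 1.01 and 0.900, so the direction does not hold in replicate 1 for every choice of arms. The unknown depth limits what can be said of weak clusters.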
